A study of Mus musculus with 18 samples.

Results

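The genes described here are 7 that are commonly used to recognise blood monocytes and neutrophils in mouse tissue: Ly6c2, Plac8, Chil3, S100a8, S100a9, Csf3r and Cxcr2. They were taken by name from the 32285 genes of a count matrix of microdissected mouse kidney, and each was matched to 1 row. The matrix held 18 RNA-seq libraries from 3 kidneys, with 6 libraries for each of 3 region types: non-cystic tissue, cystic tissue with low F4/80 signal and cystic tissue with high F4/80 signal. Adgre1 encodes F4/80, an antigen on the surface of macrophages. Each kidney gave 2 libraries per region type, labelled biological replicates 1 and 2. The question, per the series title, was which signals pass between cells around early cysts.

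All kidneys came from male C57BL/6 iKspCre-Pkd1del animals. They carry a tamoxifen-inducible Cre that is active in kidney, bred to homozygosity, and loxP sites around Pkd1 exons 2 to 11. Tamoxifen was given by mouth at 12.5 mg/kg on postnatal days 18 and 19, and animals were killed at a mild cystic stage judged by MRI. The non-cystic regions therefore come from the same Pkd1-deleted kidneys as the cysts, and no Pkd1-intact kidney is part of the comparison. The labelled age was 269 for kidneys 1 and 3 and 297 for kidney 2, with no unit. The labels number the kidneys without saying that they came from separate mice, so the p-values cover these 3 kidneys only. Each kidney's own level was taken out as a block. The p-values therefore measure how much the differences between region types varied over the 3 kidneys, and not the spread of their levels. The total per library ran from 5366651 to 9002054 counts for non-cystic tissue, from 7186518 to 9188813 for F4/80-low tissue and from 5841975 to 8662288 for F4/80-high tissue.

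Classical monocytes leave the bone marrow under the chemokine receptor CCR2, carry Ly6C on their surface and can become macrophages in inflamed kidney. Neutrophils develop under G-CSF, which acts through the receptor encoded by Csf3r, and follow CXC chemokines through CXCR2. S100A8 and S100A9 pair to form calprotectin, a calcium- and metal-binding complex that is abundant in neutrophils and also present in monocytes. Ly6c2 encodes a GPI-anchored Ly6C antigen. Plac8 encodes a small cysteine-rich protein of myeloid and lymphoid cells, and Chil3 encodes Ym1, a secreted chitinase-like protein of monocytes, neutrophils and alternatively activated macrophages. None of the 7 genes is restricted to 1 cell type.

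On GRCm38, Ly6c2 (ENSMUSG00000022584) lies on chromosome 15 from 75108158 to 75111970, Plac8 (ENSMUSG00000029322) on chromosome 5 from 100553725 to 100572245 and Chil3 (ENSMUSG00000040809) on chromosome 3 from 106147554 to 106167564, all on the minus strand. S100a8 (ENSMUSG00000056054) lies on the plus strand of chromosome 3 from 90668978 to 90670035, and S100a9 (ENSMUSG00000056071) on the minus strand from 90692632 to 90695721, with 22596 bases between them. Csf3r (ENSMUSG00000028859) lies on the plus strand of chromosome 4 from 126024550 to 126044440, and Cxcr2 (ENSMUSG00000026180) on the plus strand of chromosome 1 from 74153989 to 74161246. No annotated gene overlaps any of the 7 on either strand.

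Ly6c2 has a near-identical neighbour, Ly6c1, whose gene is 59327 bases away and which is best known from endothelium. Of the 393 coding bases of Ly6c2, 384 are the same in Ly6c1 (97.7%), and the longest identical run is 188 bases. In the annotated transcripts, 164 of 748 windows of 75 bases in Ly6c2 (21.9%) also occur in Ly6c1. Reads from those windows cannot be assigned to 1 of the genes, so the Ly6c2 values are uncertain to that extent. The first 90 coding bases, from the reference transcripts, are shown because they hold 6 of the 9 differing bases, which are in capitals.
Ly6c2: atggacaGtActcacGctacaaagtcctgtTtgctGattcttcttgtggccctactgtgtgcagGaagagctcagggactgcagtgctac
Ly6c1: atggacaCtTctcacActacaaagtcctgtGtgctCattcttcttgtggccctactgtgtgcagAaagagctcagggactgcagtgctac
For Chil3, 125 of 1465 such windows (8.53%) also occur in its neighbour Chil4.

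The promoters of the paired genes S100a8 and S100a9, and that of Plac8, the most abundant of the 7, are shown 5′ to 3′ on the coding strand from RefSeq on GRCm38.p6, cut to the bases before the annotated gene. Capitals mark matches to GAGGAA (the core of sites for the myeloid factor PU.1), read as TTCCTC on the other strand, or to TTGCNNAA, a C/EBP-type motif. The windows are chr3:90668821-90668977 on the plus strand for S100a8, chr3:90695722-90695971 on the minus strand for S100a9 and chr5:100572246-100572455 on the minus strand for Plac8.
S100a8: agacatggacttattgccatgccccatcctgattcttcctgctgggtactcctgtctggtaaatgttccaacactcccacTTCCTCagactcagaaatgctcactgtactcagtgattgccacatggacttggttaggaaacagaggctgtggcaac
S100a9: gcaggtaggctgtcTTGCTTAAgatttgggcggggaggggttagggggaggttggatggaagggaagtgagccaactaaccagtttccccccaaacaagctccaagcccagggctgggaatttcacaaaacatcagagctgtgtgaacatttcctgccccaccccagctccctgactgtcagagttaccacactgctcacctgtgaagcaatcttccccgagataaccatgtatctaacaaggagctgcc
Plac8: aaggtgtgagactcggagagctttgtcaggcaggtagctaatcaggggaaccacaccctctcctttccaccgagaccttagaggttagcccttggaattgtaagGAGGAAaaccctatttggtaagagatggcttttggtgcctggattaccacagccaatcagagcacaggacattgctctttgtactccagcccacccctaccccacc
Searched on both strands of the 250 bases before each RefSeq start, GAGGAA was found in Ly6c2, Plac8, S100a8, Csf3r and Cxcr2, and in 23.3% of all 32851 promoters. TTGCNNAA was found in S100a9 alone of the 7, and in 9.56% of all promoters. TTCNNNGAA, a STAT-type motif, was found in Chil3 alone of the 7, and in 7.02% of all promoters. These matches describe the letters only.

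The 7 genes differed widely in level. Per kilobase of exon model, the mean level in F4/80-high regions was 105.0 CPM (counts relative to library size after scaling) for Plac8, 10.5 for S100a8, 6.82 for S100a9, 2.53 for Ly6c2, 0.985 for Chil3, 0.959 for Csf3r and 0.282 for Cxcr2. Plac8 also had the highest mean level per kilobase in non-cystic (14.4) and F4/80-low regions (50.2). The spread over the 3 kidneys was wide for the next genes, with a standard deviation (SD) of 11.0 for S100a8, so the order of S100a8, S100a9 and Ly6c2 in F4/80-high regions lies within it. From here on, CPM are per gene and not per length, and a kidney's value is the sum of its 2 libraries of a region type.

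Plac8 was the gene with the clearest order across the regions. Its level was 22.45, 22.46 and 23.76 CPM in non-cystic tissue of kidneys 1, 2 and 3, then 60.1, 75.34 and 104.2 CPM in F4/80-low and 169.7, 163.9 and 165.9 CPM in F4/80-high tissue. By kidney, the 3 region types did not overlap in any pair, and the kidneys lay closest together in non-cystic and F4/80-high tissue. The libraries held 111 to 195 counts of Plac8 in non-cystic tissue, 223 to 924 in F4/80-low tissue and 1146 to 1889 in F4/80-high tissue. In CPM, single libraries of the cystic region types did overlap. Replicate 2 of F4/80-low kidney 2 had 134.5 CPM, and replicate 1 of F4/80-high kidney 3 had 115 CPM. Compared with non-cystic tissue, the log2 fold change of Plac8, with its standard error (SE) over 3 kidneys, was 1.78 ± 0.20 in F4/80-low tissue (edgeR adjusted p = 0.00352) and 2.87 ± 0.20 in F4/80-high tissue (adjusted p = 2.544e-05). F4/80-high exceeded F4/80-low by 1.09 ± 0.19 (adjusted p = 0.00467). The first of these was not called without kidney 1 (1.93, adjusted p = 0.0613) or without replicate 2 of the F4/80-low region of kidney 2 (1.35, adjusted p = 0.197), which had the highest Plac8 count of its group, nor in the libraries labelled replicate 1 alone (1.26, adjusted p = 0.308). The third was not called without kidney 1 (0.89, adjusted p = 0.0631) or without replicate 1 of that same region and kidney (0.78, adjusted p = 0.0562), which had the lowest. Fewer transcripts per cell and fewer cells of a type cannot be told apart in such bulk tissue, and this holds for every value that follows.

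Ly6c2 was low and similar in non-cystic and F4/80-low tissue and high in F4/80-high tissue of every kidney. It measured 1.33, 2.27 and 0.621 CPM in non-cystic tissue of kidneys 1, 2 and 3, 1.50, 1.31 and 1.73 CPM in F4/80-low tissue and 9.94, 6.54 and 4.31 CPM in F4/80-high tissue. Non-cystic and F4/80-low kidneys overlapped, and the lowest F4/80-high kidney lay above all 6 of their values. The libraries held 2 to 16, 5 to 16 and 37 to 118 counts of Ly6c2 in the same order. In F4/80-high tissue the log2 fold change of Ly6c2 was 2.30 ± 0.46 over non-cystic tissue (edgeR adjusted p = 0.00361) and 2.10 ± 0.45 over F4/80-low tissue (adjusted p = 0.00997). F4/80-low differed from non-cystic by 0.20 ± 0.48 (adjusted p = 0.941). Without kidney 1, which had the highest F4/80-high value, the first difference was 1.98 (adjusted p = 0.063) and the second 1.75 (adjusted p = 0.113).

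The near-identical gene Ly6c1 did not follow the order of Ly6c2. In F4/80-high tissue its log2 fold change over non-cystic tissue was 0.28 ± 0.19 (edgeR adjusted p = 0.273), and it was called there only when libraries were scaled by total counts. Across the 18 libraries the correlation of log2 CPM between Ly6c2 and Ly6c1 was 0.14. The summed level of 6 endothelial genes, Ly6c1 among them, ranged from 1169 to 2529 CPM in the non-cystic libraries, 1509 to 2297 CPM in the F4/80-low libraries and 1179 to 2612 CPM in the F4/80-high libraries, which overlap.

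Chil3 was sparse and uneven, and it was called in no comparison. It measured 1.50, 0.585 and 0 CPM in non-cystic tissue of kidneys 1, 2 and 3, 1.90, 0.525 and 0 CPM in F4/80-low tissue and 1.63, 1.54 and 1.66 CPM in F4/80-high tissue. Kidney 1 was at a similar level in all 3 region types, whereas kidney 3 had no count outside F4/80-high tissue. Even there its 2 libraries had 30 and 0 counts, and those of kidney 1 had 29 and 2. Kidney 3 at 0 allows up to 3 counts per library, which is 0.35 and 0.682 CPM in its non-cystic libraries. In F4/80-high tissue the log2 fold change of Chil3 was 1.95 ± 1.04 over non-cystic tissue (edgeR adjusted p = 0.17) and 1.80 ± 1.03 over F4/80-low tissue (adjusted p = 0.236). DESeq2, which called 20.8% of all tested genes higher there, gave the first an adjusted p of 0.0393, and the libraries labelled replicate 1 alone gave 0.0271, while those labelled replicate 2 alone gave a fold change of the opposite sign (-0.42).

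**Figure D1:**
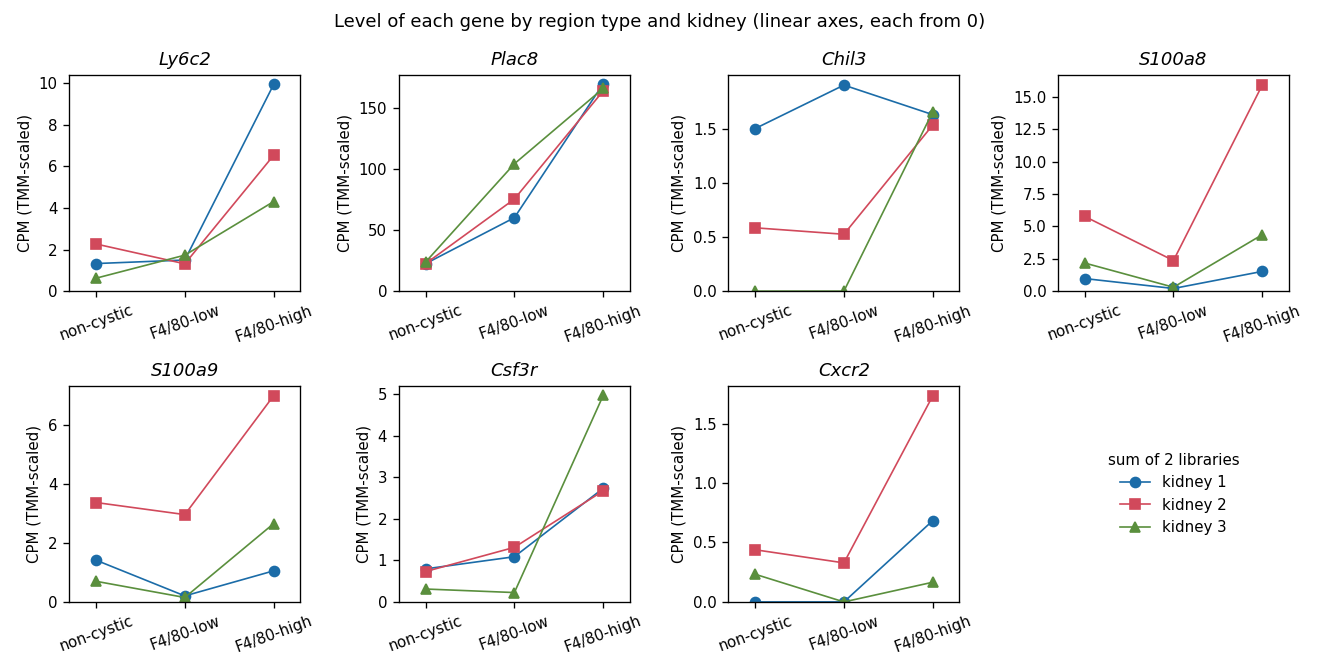
Level of each of the 7 genes in CPM (vertical axis, linear, from 0 in each panel) in non-cystic, F4/80-low and F4/80-high tissue (horizontal axis); each marker is the sum of 2 libraries and lines join the regions of 1 kidney. Plac8 steps up from 22.45 to 169.7 CPM in kidney 1 and in the same order in the others, Ly6c2 and Csf3r separate only F4/80-high tissue, and kidney 2 is the highest for S100a8, S100a9 and Cxcr2 in every region type.

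S100a8 had its lowest level in F4/80-low tissue of every kidney and its highest in F4/80-high tissue, on very different scales per kidney. It measured 0.972, 5.78 and 2.17 CPM in non-cystic tissue of kidneys 1, 2 and 3, 0.204, 2.37 and 0.301 CPM in F4/80-low tissue and 1.53, 15.9 and 4.36 CPM in F4/80-high tissue. The groups overlapped, and kidney 2 was the highest in each, but within each kidney the order of the regions was the same. The libraries held 0 to 44 counts of S100a8 in non-cystic (median 17.5), 0 to 26 in F4/80-low tissue (median 3.5) and 1 to 210 in F4/80-high tissue (median 44.5). With the kidney as a block, F4/80-high tissue had a log2 fold change of 3.00 ± 0.40 over F4/80-low tissue (edgeR adjusted p = 0.00178) and of 1.08 ± 0.36 over non-cystic tissue (adjusted p = 0.0365). F4/80-low minus non-cystic was -1.92 ± 0.41 (adjusted p = 0.0565), lower in 3 of 3 kidneys. DESeq2, which called 0.462% of all tested genes lower there, put that difference at an adjusted p of 0.00601 and the fit without a filter on low counts at 0.0141. It was also called lower without replicate 2 of non-cystic kidney 2 (-2.11, adjusted p = 0.0215) and when replicate 1 of F4/80-high kidney 3 was left out (-1.99, adjusted p = 0.0499).

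The S100a8 difference between F4/80-high and non-cystic tissue was called in 17 of 34 alternative settings. Without the block, the sums of F4/80-high and non-cystic tissue differed by 1.28 (adjusted p = 0.368). Leaving out kidney 1 or kidney 2 ended the call (1.23 and 0.83, adjusted p = 0.0843 and 0.414). So did leaving out any 1 of 9 libraries, with log2 fold changes from 0.59 to 1.08 and adjusted p from 0.0545 to 0.522. These were replicate 1 of non-cystic kidney 1, replicate 2 of non-cystic kidneys 2 and 3, replicate 1 of F4/80-low kidneys 1, 2 and 3, replicate 2 of F4/80-high kidney 1 and replicate 1 of F4/80-high kidneys 2 and 3. The lowest value came without replicate 2 of F4/80-high kidney 1, which held 28 of that kidney's 29 counts. The difference between F4/80-high and F4/80-low tissue was called with every kidney and every library left out in turn. It was not called in the 9 sums without the block (2.90, adjusted p = 0.0979), with the kidney as a random effect (2.97, adjusted p = 0.152) or in the libraries labelled replicate 2 alone (3.06, adjusted p = 0.0638).

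S100a9, the partner of S100a8, showed the same low point in F4/80-low tissue with wider errors. It measured 1.41, 3.37 and 0.699 CPM in non-cystic tissue of kidneys 1, 2 and 3, 0.204, 2.96 and 0.150 CPM in F4/80-low tissue and 1.05, 6.98 and 2.65 CPM in F4/80-high tissue. All 3 groups overlapped, and in kidney 1 the F4/80-high value was below the non-cystic one. In F4/80-high tissue the log2 fold change of S100a9 was 2.15 ± 0.64 over F4/80-low tissue (edgeR adjusted p = 0.0355) and 0.88 ± 0.61 over non-cystic tissue (adjusted p = 0.284). F4/80-low minus non-cystic was -1.27 ± 0.66 (adjusted p = 0.525). The call against F4/80-low was lost in 16 of 33 alternative settings, including each kidney left out in turn (1.44 to 3.28, adjusted p = 0.0605 to 0.101). It was also lost without any 1 of 7 libraries (1.33 to 2.43, adjusted p = 0.0505 to 0.155). These were replicate 2 of non-cystic kidney 1, replicate 1 of non-cystic kidney 3, replicate 1 of F4/80-low kidneys 1 and 3, replicate 2 of F4/80-high kidney 1 and both replicates of F4/80-high kidney 3.

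Across the 18 libraries, S100a8 and S100a9 varied together. The correlation of log2 CPM was 0.87, and it was 0.85 after the mean of each region type was taken out. On log2(counts + 1) it was 0.88, and 0.84 over the 16 libraries left without the 2 farthest from the median of S100a8. The libraries share kidneys and sequencing depth, so this is a description. Replicate 2 of F4/80-high kidney 3 departed most visibly, with 18 counts of S100a8 and 1 of S100a9.

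**Figure D2:**
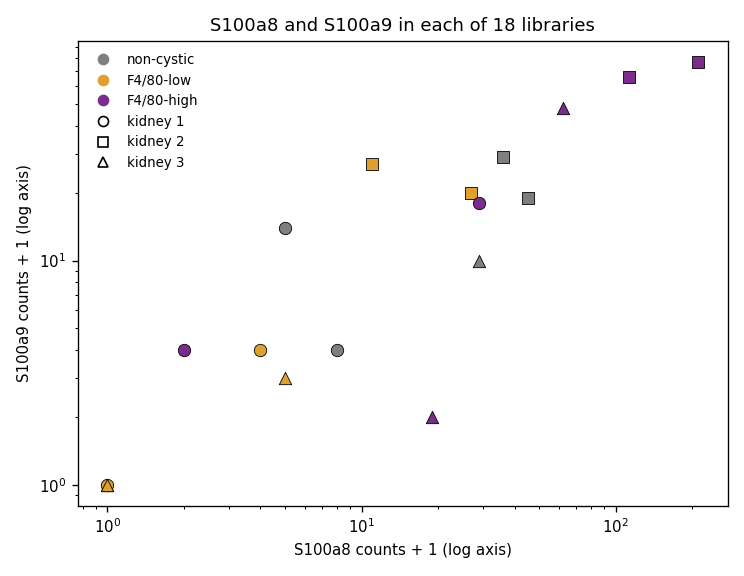
S100a8 counts + 1 (horizontal, log axis) against S100a9 counts + 1 (vertical, log axis), 1 marker per library, with colour for region type and shape for kidney. The 2 F4/80-high libraries of kidney 2 are at the top right with 210 and 112 counts of S100a8, and the markers of libraries with 0 counts of both genes lie on top of each other at the bottom left.

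Haemoglobin genes, which mark residual blood, also differed between kidneys. Their summed level in kidneys 1, 2 and 3 was 606.3, 1552 and 419.7 CPM in non-cystic, 193.2, 1403 and 586.2 CPM in F4/80-low and 37.13, 301.6 and 291.4 CPM in F4/80-high tissue. Kidney 2 was the highest in each region type for haemoglobin as for S100a8, S100a9 and Cxcr2. It was also the only kidney labelled with age 297, so age and other differences of kidney 2 cannot be told apart. After the region means were taken out, the correlation with Hba-a1 over 18 libraries was 0.57 for S100a8 and 0.66 for S100a9, against 0.02 for Ly6c2 and -0.38 for Plac8. Such values were not particular to haemoglobin. S100a8 and S100a9 had 0.46 and 0.76 with Ly6c1, 0.49 and 0.44 with Lcn2, and -0.59 each with Ccr2. Between F4/80-high and non-cystic tissue the directions differed. Hba-a1 was lower in F4/80-high tissue (log2 fold change -2.52 ± 0.70, edgeR adjusted p = 0.0279), where S100a8 was higher. These calls were lost in 9 and 17 of 34 alternative settings. In F4/80-low against non-cystic tissue the haemoglobin sum was lower in kidneys 1 and 2 and higher in kidney 3. S100a8 and S100a9 were lower there in kidneys 1, 2 and 3. The summed level of 8 red cell and platelet genes ranged from 429.3 to 1599 CPM in the non-cystic libraries, 113.7 to 2032 in the F4/80-low libraries and 66.64 to 580.3 in the F4/80-high libraries. The part of residual blood in the S100a8, S100a9 and Cxcr2 values was not tested.

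Csf3r, the receptor for G-CSF, separated F4/80-high tissue from both other region types when compared by kidney. It measured 0.795, 0.732 and 0.311 CPM in non-cystic tissue of kidneys 1, 2 and 3, 1.09, 1.31 and 0.226 CPM in F4/80-low tissue and 2.74, 2.67 and 4.97 CPM in F4/80-high tissue. Kidney 3 was the lowest in non-cystic and F4/80-low tissue and the highest in F4/80-high tissue, and no F4/80-high kidney overlapped another group. The libraries held 0 to 9, 0 to 13 and 16 to 51 counts of Csf3r in the same order. In CPM, single libraries of the cystic region types overlapped. Replicate 2 of F4/80-low kidney 2 had 1.892 CPM, and replicate 1 of F4/80-high kidney 1 had 1.631 CPM. In F4/80-high tissue the log2 fold change of Csf3r was 2.60 ± 0.68 over non-cystic tissue (edgeR adjusted p = 0.0134) and 2.10 ± 0.66 over F4/80-low tissue (adjusted p = 0.044). F4/80-low minus non-cystic was 0.49 ± 0.70 (adjusted p = 0.89). The first was not called without kidney 1 (3.02, adjusted p = 0.0612) or in the libraries labelled replicate 2 alone (2.33, adjusted p = 0.142). The second was not called with any 1 kidney left out (1.17 to 2.75, adjusted p = 0.0658 to 0.161), nor without any 1 of 10 libraries (1.93 to 2.16, adjusted p = 0.0571 to 0.102). These were both replicates of non-cystic kidney 1, replicate 2 of non-cystic kidney 2, replicate 1 of non-cystic kidney 3, replicate 2 of F4/80-low kidney 1, replicate 1 of F4/80-low kidneys 2 and 3, replicate 2 of F4/80-high kidney 1, replicate 1 of F4/80-high kidney 2 and replicate 2 of F4/80-high kidney 3.

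Cxcr2, the neutrophil chemokine receptor, was too sparse to pass the filter on low counts. In the fit without that filter, F4/80-low tissue had a log2 fold change of -1.39 ± 1.30 over non-cystic tissue (edgeR adjusted p = 0.984). F4/80-high tissue had 1.83 ± 1.14 over non-cystic (adjusted p = 0.32) and 3.22 ± 1.19 over F4/80-low tissue (adjusted p = 0.0674), so none was called. It had 9 counts over the 6 non-cystic libraries, 5 over the F4/80-low and 51 over the F4/80-high libraries. All 5 F4/80-low counts were in replicate 1 of kidney 2, and 25 of the 51 F4/80-high counts were in replicate 1 of the same kidney. By kidney, Cxcr2 measured 0, 0.439 and 0.233 CPM in non-cystic, 0, 0.328 and 0 CPM in F4/80-low and 0.684, 1.73 and 0.166 CPM in F4/80-high tissue, so the groups overlapped. The pooled ratio of F4/80-high to non-cystic was 3.86, with an exact 95% interval of 1.88 to 8.91, and of F4/80-high to F4/80-low 7.89 (3.17 to 25.3). These intervals cover counting error only and not the spread between kidneys.

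Of the 6 genes that passed the filter, 1 (Plac8) was called higher in F4/80-low than in non-cystic tissue, where 1.51% of all 16034 tested genes were called higher. The count was 4 of 6 (Ly6c2, Plac8, S100a8 and Csf3r) in F4/80-high against non-cystic tissue, where 19.7% were called higher. For F4/80-high against F4/80-low it was 5 of 6, all but Chil3, where 10.3% were called higher. By edgeR, 0 of the 6 were called lower in the 3 comparisons, where 0.0249%, 19.5% and 14% of all tested genes were. In F4/80-low against non-cystic tissue, 1 of them (S100a8) was lower at an unadjusted p below 0.05, by the DESeq2 test and in 4 alternative settings in all, and in the other comparisons none was by either test. The median log2 fold change of the 6 was 0.17, 2.12 and 2.10 in the 3 comparisons, and that of all tested genes 0, 0.04 and 0.04. A gene can pass the filter through the region type where it is high, so these counts describe the genes tested and not all 7. The comparisons share samples.

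Counting genes whose 3 kidneys all lay above the 3 kidneys of the other region type gave Plac8 for F4/80-low against non-cystic, where 10.5% of all tested genes did so. It gave Ly6c2, Plac8, Chil3 and Csf3r for F4/80-high against non-cystic, where 26.8% did so. Against F4/80-low it gave Ly6c2, Plac8 and Csf3r, where 22.1% did so. S100a8 and S100a9 are in none of these 3 counts. Chil3 entered the second narrowly, with 1.502 CPM in non-cystic tissue of kidney 1 and 1.535 CPM in F4/80-high tissue of kidney 2. Its single libraries overlapped, at 0 to 2.848 and 0 to 3.011 CPM.

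**Figure D3:**
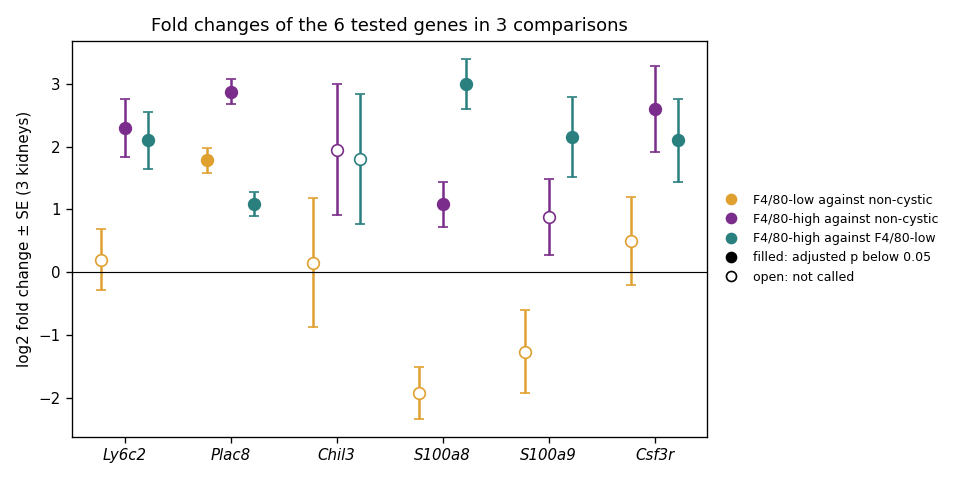
Log2 fold change with its SE over 3 kidneys (vertical axis) of the 6 tested genes (horizontal axis) in the 3 comparisons (colours); filled markers have an adjusted p below 0.05. Plac8 is filled in all 3 comparisons, S100a8 and S100a9 lie below 0 at -1.92 and -1.27 for F4/80-low against non-cystic with open markers, and Chil3 is open throughout.

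The other genes of the classical monocyte list moved with Ly6c2 and Plac8. Of 14 genes on that list, 4 were called higher in F4/80-low than in non-cystic tissue, where 1.51% of all tested genes were. These were Plac8, Ccr2, Hp and Lyz2, of which Hp lost its call in 20 of 34 alternative settings. In F4/80-high against non-cystic tissue 11 of 14 were called higher, where 19.7% of all tested genes were, and none lower. Ccr2, the receptor through which monocytes are recruited, had a log2 fold change of 3.85 ± 0.19 (edgeR adjusted p = 8.843e-06). Lyz2, the lysozyme of monocytes, macrophages and neutrophils, had 5.72 ± 0.38 (adjusted p = 1.787e-05), and the haemoglobin scavenger Hp 5.93 ± 0.53 (adjusted p = 0.000112). Chil3 was among those not called. Against F4/80-low tissue 8 of 14 were called higher, where 10.3% of all tested genes were. Among them was Ccr2 with 2.09 ± 0.17 (adjusted p = 0.000765). The summed level of the list ranged from 48 to 103.5 CPM in the non-cystic libraries, 122.2 to 552.8 in the F4/80-low libraries and 1292 to 4564 in the F4/80-high libraries, which do not overlap. Lyz2 alone made up 11.37 to 62.38, 38.77 to 378.4 and 852.6 to 3901 CPM of it. In F4/80-high tissue the mean over kidneys was 1856 CPM for Lyz2 and 2376 CPM for the list.

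Genes of patrolling monocytes, which carry little Ly6C, were mixed. Of 10 such genes, 3 were called higher in F4/80-high than in non-cystic tissue and 2 lower. Over all tested genes, 19.7% were called higher there and 19.5% lower. Among the 3 were the fractalkine receptor Cx3cr1 (3.94 ± 0.26, edgeR adjusted p = 1.787e-05) and the integrin Itgal (1.98 ± 0.42). Ace and Ceacam1 were called lower (-1.34 ± 0.32 and -0.95 ± 0.18), and epithelial cells make both as well. In F4/80-low against non-cystic tissue, where 1.51% of all tested genes were called higher, Cx3cr1 alone was called (2.01 ± 0.26, adjusted p = 0.00732). The summed level of this list overlapped between all region types, at 62.62 to 84.77, 70.56 to 102.9 and 64.83 to 98.25 CPM. Ace and Ceacam1 carried most of the sum in non-cystic tissue, with means of 28.1 and 38.6 CPM, against 11.1 and 20.2 CPM in F4/80-high tissue, while Cx3cr1 had 1.99 and 31.3 CPM.

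Neutrophil genes were present at low counts, and the most specific of them were near 0. Ly6g, the surface antigen that defines mouse neutrophils, had 1 count over the 6 non-cystic libraries, 2 over the F4/80-low and 5 over the F4/80-high libraries. Cxcr1, Cd177 and Wfdc21 were at 0 in all non-cystic libraries, and Cxcr1 and Wfdc21 in all F4/80-low libraries. Of 17 mature neutrophil genes 10 passed the filter. In F4/80-high against non-cystic tissue 6 of these were called higher, where 19.7% of all tested genes were: S100a8, Csf3r, Il1r2, Fpr1, Fpr2 and Lrg1. Il1r2, a decoy receptor for IL-1, had a log2 fold change of 3.16 ± 0.80 (edgeR adjusted p = 0.0114), and the formyl peptide receptors Fpr1 and Fpr2 had 2.73 ± 0.88 and 2.78 ± 0.89 (adjusted p = 0.0342 and 0.0322), each lost in 6 of 33 alternative settings (adjusted p up to 0.245 and 0.214). Against F4/80-low tissue 6 were called higher (S100a8, S100a9, Csf3r, Retnlg, Il1r2 and Fpr1), where 10.3% of all tested genes were. Lrg1 was called lower there (-1.43 ± 0.39, adjusted p = 0.035), as were 14% of all tested genes. This Lrg1 call was lost in 18 of 34 alternative settings (-2.12 to -0.51, adjusted p up to 0.685). In F4/80-low against non-cystic tissue, where 1.51% of all tested genes were called higher, Lrg1 alone was called (3.88 ± 0.44, adjusted p = 0.00848). It encodes a secreted glycoprotein that is also made outside neutrophils. Mmp8, a neutrophil collagenase below the filter, had 2, 4 and 72 counts over the libraries of the 3 region types, a ratio of 24.5 for F4/80-high to non-cystic (exact 95% counting interval 6.54 to 206). Both non-cystic counts were in 1 library of kidney 1, which had 4 counts in F4/80-high tissue, against 37 and 31 in kidneys 2 and 3. The summed level of the 17 genes was 9.093 to 22.9 CPM in the non-cystic libraries, 13.97 to 301.8 in the F4/80-low libraries and 23.04 to 115.1 in the F4/80-high libraries. Lrg1 alone made up 4.144 to 10.71, 9.862 to 287.1 and 6.22 to 76.64 CPM of it.

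Of 8 granule genes of neutrophil precursors, Elane, Mpo, Ctsg, Camp and Ngp were at 0 in all non-cystic libraries and did not pass the filter. Ctsg was at 0 in all 18 libraries. The 3 that passed were Chil1, Prtn3 and Ltf. Chil1, a chitinase-like relative of Chil3 that macrophages also make, was called higher in F4/80-high than in non-cystic tissue (4.87 ± 0.89), as was the proteinase Prtn3 (3.82 ± 0.82). Over all tested genes, 19.7% were called higher there. Ltf was called in no comparison and averaged 0.9155, 1.265 and 1.096 CPM in non-cystic, F4/80-low and F4/80-high tissue. For Chil1, 218 of the 295 F4/80-high counts came from 1 library. Its level in F4/80-high tissue of kidneys 1, 2 and 3 was 2.735, 11.54 and 0.5524 CPM. The mRNA of granule genes is known to be lost as neutrophils mature, and protein was not measured.

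Markers of other leukocytes differed between the same regions. All 8 pan-leukocyte and pan-myeloid genes were called higher in F4/80-high than in non-cystic tissue, where 19.7% of all tested genes were. Their summed level was 44.39 to 99.84 CPM in the non-cystic libraries, 123 to 312.3 in the F4/80-low libraries and 601.8 to 1109 in the F4/80-high libraries. Of 12 macrophage genes 10 were called higher, and their summed level was 91.64 to 158.3, 191.9 to 571.4 and 985.8 to 2654 CPM. Adgre1, on whose protein the regions were chosen, had a log2 fold change of 4.42 ± 0.31. All 7 T and NK cell genes, 5 of 7 dendritic cell genes and 3 of 6 B and plasma cell genes were also called higher there. The summed levels of these 3 lists in CPM were 4.092 to 13.16, 8.26 to 31.72 and 46.37 to 97.04 for T and NK cells, 5.515 to 12.09, 10.74 to 25.81 and 32.76 to 73.47 for dendritic cells, and 8.528 to 518.6, 5.239 to 193.7 and 14.24 to 1225 for B and plasma cells. Their part in the Plac8, Ly6c2 and Csf3r values was not tested.

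Set against Ptprc, which encodes the pan-leukocyte protein CD45, Plac8, Ly6c2, Csf3r, S100a8 and S100a9 overlapped between F4/80-high and non-cystic tissue. Ptprc itself had a log2 fold change of 2.78 ± 0.18 there (edgeR adjusted p = 1.595e-05), beside 2.87 for Plac8, 2.30 for Ly6c2, 2.60 for Csf3r and 1.08 for S100a8. Plac8 had 126 to 161 counts per 100 Ptprc counts in the 3 non-cystic kidneys and 135 to 181 in the F4/80-high kidneys, which overlap. In F4/80-low tissue it had 170 to 323, above every non-cystic kidney. Ly6c2 had 3.31 to 16.2 counts per 100 Ptprc counts in the non-cystic tissue, 3.93 to 5.36 in the F4/80-low tissue and 3.52 to 9.18 in the F4/80-high tissue. Csf3r had 1.65 to 5.66, 0.699 to 3.93 and 2.53 to 4.06. S100a8 had 6.92, 41.4 and 11.6 counts per 100 Ptprc counts in non-cystic tissue of kidneys 1, 2 and 3, 0.578, 7.07 and 0.932 in F4/80-low and 1.41, 17.6 and 3.56 in F4/80-high tissue. In each kidney, non-cystic tissue was the highest and F4/80-low tissue the lowest for S100a8 on this scale. S100a9 had 10.1, 24.1 and 3.72 in non-cystic, 0.578, 8.84 and 0.466 in F4/80-low and 0.971, 7.7 and 2.17 in F4/80-high tissue of kidneys 1, 2 and 3. On this scale S100a8 and S100a9 were lower in F4/80-high than in non-cystic tissue of every kidney, opposite to the sign of their log2 fold changes in CPM. These ratios were not tested.

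**Figure D4:**
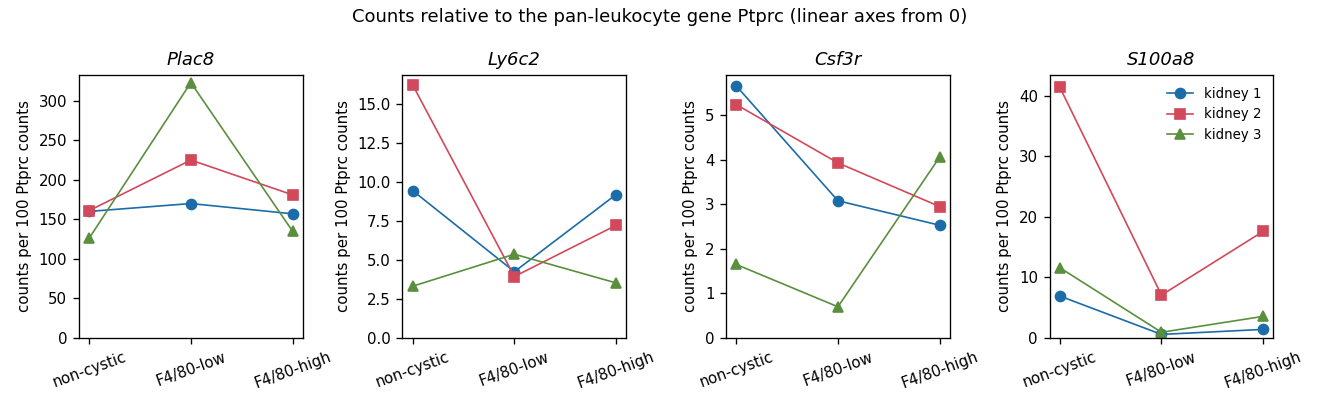
Counts of Plac8, Ly6c2, Csf3r and S100a8 per 100 counts of Ptprc (vertical axes, linear, from 0) in the 3 region types (horizontal axis), with 1 line per kidney. Plac8 peaks in F4/80-low tissue, at 323 in kidney 3, and S100a8 is highest in non-cystic tissue of every kidney, at 41.4 in kidney 2.

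Ligands that act on the receptors of these cells were called higher in F4/80-high than in non-cystic tissue for all 3 CCR2 ligands and 3 of 5 CXCR2 ligands listed. Over all tested genes, 19.7% were called higher there. The 3 genes Ccl2, Ccl7 and Ccl12 encode chemokines for CCR2, and all 3 were called higher in F4/80-high than in non-cystic tissue (log2 fold changes of 6.18 ± 0.32, 8.75 ± 0.96 and 7.51 ± 0.68) and in F4/80-high than in F4/80-low tissue. In F4/80-low against non-cystic tissue Ccl2 (4.17 ± 0.31, edgeR adjusted p = 0.000421) and Ccl12 (4.84 ± 0.70, adjusted p = 0.0184) were called and Ccl7 was not (adjusted p = 0.0548). Of 5 ligands of CXCR2, 4 passed the filter. Cxcl1 was called higher in F4/80-low (2.93 ± 0.54, adjusted p = 0.0441) and F4/80-high tissue (3.26 ± 0.55, adjusted p = 0.00281) than in non-cystic tissue, and the first of these calls was lost in 18 of 34 alternative settings. Ppbp, a platelet chemokine, was called in no comparison and averaged 1.95, 1.54 and 0.812 CPM in non-cystic, F4/80-low and F4/80-high tissue. Cxcl2 and Cxcl5 had no count in any non-cystic library. Set against a floor of 3 counts over that group, Cxcl2 was at least 35.8-fold higher in F4/80-low and 74.9-fold higher in F4/80-high tissue, and Cxcl5 at least 8.22-fold and 114-fold higher. Cxcl5 was not called in F4/80-low tissue, where kidney 1 had no count, and 299 of its 503 counts in F4/80-high tissue came from replicate 1 of kidney 2. Csf3, which encodes the G-CSF that binds the Csf3r product, had 1, 2 and 38 counts over the libraries of the 3 region types, with a ratio of 25.9 for F4/80-high to non-cystic (exact 95% counting interval 4.37 to 1.05e+03).

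Of 4 genes for receptors of S100A8 and S100A9, Tlr4 (1.63 ± 0.50, edgeR adjusted p = 0.0272), Ager (2.88 ± 0.76) and Cd33 (1.82 ± 0.53) were called higher in F4/80-high than in non-cystic tissue. Cd36, a fatty acid transporter that also binds the complex, was called lower (-1.86 ± 0.45). Over all tested genes, 19.7% were called higher there and 19.5% lower. None of the 4 was called in F4/80-low against non-cystic tissue. Of the other S100 genes, S100a6 and S100a11 were called higher in F4/80-low than in non-cystic tissue, where S100a8 and S100a9 were not called. In F4/80-high against non-cystic tissue S100a6, S100a10 and S100a11 were called higher, with log2 fold changes of 3.63 ± 0.36, 1.50 ± 0.21 and 2.24 ± 0.21.

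Of 8 transcription factors of the myeloid lineage 6 passed the filter. In F4/80-high against non-cystic tissue 5 of these were called higher, where 19.7% of all tested genes were. Spi1, which encodes PU.1, had a log2 fold change of 3.19 ± 0.57, Cebpd 2.11 ± 0.31, Irf8 1.65 ± 0.27 and Klf4 1.42 ± 0.31. None was called in F4/80-low against non-cystic tissue, and the neutrophil factors Cebpe and Gfi1 did not pass the filter. Of 5 adhesion genes through which leukocytes enter tissue, Vcam1 (5.55 ± 0.33), Icam1 (1.70 ± 0.26) and Selp (3.08 ± 1.03) were called higher in F4/80-high than in non-cystic tissue. Selp had 4 counts over the non-cystic and 53 over the F4/80-high libraries, and its call was lost in 9 of 26 alternative settings. Vcam1 and Icam1 were also called in F4/80-low tissue (3.89 ± 0.31 and 1.41 ± 0.25); injured tubule cells make Vcam1 too. Lcn2, which encodes a protein of neutrophil granules and of injured tubule, had a log2 fold change of 7.91 ± 0.96 in F4/80-high over non-cystic tissue.

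The genes whose log2 CPM followed a member most closely over the 18 libraries differed from member to member, among 12759 or 12760 genes compared. For Plac8 they were H2-DMb2 and H2-DMa (both r = 0.97), which encode the chaperone that loads MHC class II, and Gm43109, Cxcl16 and Vcam1 (r = 0.96 each). For Csf3r they were Stard13 and Gm16933 (r = 0.91), S100a4 and Cd37 (r = 0.90) and Evl (r = 0.89). For Ly6c2 they were Exosc8 and Nudt21 (r = 0.90), Cst3 (r = 0.89), and Rab32 and Klhl13 (r = 0.88). The closest genes reached r = 0.81 for S100a8 (Nsrp1), 0.83 for S100a9 (Gimap5) and 0.78 for Chil3 (Fkbp9). S100a8 and S100a9 were left out of the genes compared because of their own low mean level, and their correlation with each other was higher than with any of these. The libraries share regions, kidneys and depth, so these values describe likeness of level only.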

How the data were processed

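The values are raw gene counts, deposited by the authors without normalization. The submitters' processing notes name HTSeq 0.11.0, fastp 0.20.1, FastQC 0.11.9 and the mouse build mm10 (GRCm38). Aligner, annotation and strandedness: not given in the sources used here. Per the labels, libraries came from a low-input kit. Both libraries from 1 kidney and region type were added up, and the 9 sums entered edgeR 4.0.16 (R 4.3.3; TMM scaling, filterByExpr, robust quasi-likelihood test) as 1 model of the 3 region types blocked by kidney, leaving 4 residual degrees of freedom. The SE was taken from the fold change and the F statistic. A gene was called when its adjusted p (Benjamini-Hochberg, 16034 genes) was below 0.05. The block rests on the labelled kidney; residuals of same-kidney sums correlated from -0.15 to 0.28. Intervals and floors (3 counts) cover counting error only. Correlations used a prior count of 2, and genes of likeness a mean log2 CPM of at least 1.

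The members, gene lists and alternatives were chosen with earlier results of these data known. Named genes are the 7 members, from each list at most 4 genes, those of smallest p in F4/80-high against non-cystic tissue, 16 genes fixed in any case, and for each member the 5 genes most like it; Mmp8 and Retnlg, and genes named only because a count lists them, were named outside this rule with their values known. Alternatives were 3 other scalings (DESeq2 1.42.0 size factors, upper quartile, total counts), no filter, at least 50 counts in 3 sums, the DESeq2 test, 18 separate libraries (with block, without it, or kidney as random effect in limma 3.58.1), 9 sums without the block, only 2 region types, 1 replicate label alone, and each kidney or library left out. Protein sequences were not used here.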

Additional observations from a re-analysis of the deposited data

Results flagged for a closer look

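Of 21 groups of 6 libraries (7 genes in 3 region types), 3 held an outlying library. Its gap to the nearest other was over 0.625 of the group's range, the 95% limit of Dixon's test for 6 values. For normally distributed values chance flags about 1 group in 20. That rate does not hold for sparse counts with many libraries at 0, so these flags are a description. Chil3 in non-cystic tissue was 2.848 CPM (17 counts) in replicate 2 of kidney 1, where the next library had 0.9849 CPM. S100a8 in F4/80-low tissue was 3.784 CPM (26 counts) in replicate 2 of kidney 2, where the next had 1.18 CPM and the median was 0.4919 CPM. Cxcr2 in F4/80-low tissue was 0.59 CPM (5 counts) in replicate 1 of kidney 2, with 0 counts in the other 5, a pattern that this rule always flags.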

How the results depend on the processing

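All members but Plac8 had few counts per library, and 3 kidneys were compared. Over 34 alternatives, Plac8 in F4/80-high against non-cystic tissue was called in all (2.71 to 3.47), Ly6c2 in all but 1 (1.98 to 2.90) and Csf3r in all but 2 (1.82 to 3.82).

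For F4/80-low against non-cystic, the count of members called higher (1) was 0 in the libraries labelled replicate 1 alone and 0 to 1 with a kidney or library left out. Of all tested genes, 242 of 16034 were called higher in the main fit, 33 of 14645 in replicate 1 alone and 22 to 549 in the left-out fits. The count of members called lower (0) was 1 without the filter, 1 by DESeq2 and 0 to 1 in the left-out fits. Of all tested genes, 4 were called lower in the main fit, 23 of 27440 without the filter and 74 by DESeq2. For F4/80-high against non-cystic, the count of members called higher (4) was 2 in the libraries labelled replicate 2 alone and 1 to 4 in the left-out fits, with 1 without kidney 1. Calls over the whole table fell too. In the main fit 3156 of 16034 genes were called higher, against 2381 of 14581 in replicate 2 alone and 1737 of 16342 without kidney 1. For F4/80-high against F4/80-low, the count of members called higher (5) was 3 with the kidney as random effect, 3 in the 9 sums without the replicate block, 3 with only the 2 region types, 3 and 1 in the libraries labelled replicate 1 and 2 alone, and 1 to 5 in the left-out fits. It was 1 without kidney 1 and 3 without kidney 2, without kidney 3, or without any 1 of the libraries non-cystic kidney 1 replicate 2, non-cystic kidney 3 replicate 1, F4/80-low kidney 2 replicate 1, F4/80-low kidney 3 replicate 1, F4/80-high kidney 1 replicate 2 and F4/80-high kidney 3 replicate 2. Of all tested genes, 1649 of 16034 were called higher in the main fit of this comparison. Without kidneys 1, 2 and 3 in turn these were 467, 913 and 1168, and with a library left out 1096 to 1830. With the kidney as random effect they were 2926 of 14444, and in the 9 sums without the block 1760. With only the 2 region types they were 1120, and in replicates 1 and 2 alone 894 and 846. Leaving out a kidney also leaves fewer sums to estimate the spread. The cause of the other changes was not tested.

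Signs that turned were all of differences not called. In F4/80-low against non-cystic, Ly6c2 was -0.20 in the libraries labelled replicate 1 alone and -0.38 to 0.84 in the left-out fits; in those labelled replicate 2 alone, Chil3 was -0.06 and Csf3r -0.12, and Chil3 was -0.43 to 1.49 in the left-out fits. In F4/80-high against non-cystic, the libraries labelled replicate 2 alone gave Chil3 -0.42 and Ly6c1 -0.20, and the left-out fits gave S100a9 -0.15 to 1.51 and Ly6c1 -0.13 to 0.49; S100a9 was -0.15 without F4/80-high kidney 3 replicate 1. In F4/80-high against F4/80-low, Chil3 was -0.36 in the libraries labelled replicate 2 alone.

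Scaling by total counts moved the median of all genes to 0.13, 0.65 and 0.52 in the 3 comparisons, and upper quartile scaling to 0, 0.16 and 0.16. In F4/80-high against non-cystic, 3156 genes were called higher and 3133 lower, and 6587 and 1468 with total counts. Against F4/80-low these were 1649 and 2246, 4194 and 1127 with total counts, and 2101 and 1855 with upper quartile scaling.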
